A study of Caenorhabditis elegans with 33 samples.

Results

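A set of 9 genes of the Caenorhabditis elegans gut, which encode 7 proteases, an esterase and a transcription factor, was followed through the mRNA libraries of 5 genotypes. They are the cysteine protease genes cpr-1 (C52E4.1), cpr-4 (F44C4.3), cpr-5 (W07B8.5) and cpr-6 (C25B8.3), the aspartyl protease genes asp-1 (Y39B6A.20), asp-2 (T18H9.2) and asp-3 (H22K11.1), the gut esterase gene ges-1 (R12A1.4) and elt-2 (C33D3.1). They were chosen with earlier results of these data known and were looked up by sequence name. All 9 were found among the 20517 genes of the table and passed the filter on low values.

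The intestine of the worm is a single layer of large cells that takes up bacterial food, digests it and stores its products. Cathepsin B-like cysteine proteases (cpr) and cathepsin D-like aspartyl proteases (asp) break down protein, either in lysosomes or after secretion into the gut lumen. ges-1 encodes a carboxylesterase that has long served as a marker of gut fate, and ELT-2 is the GATA-type transcription factor that holds the differentiated state of the intestine and acts on the promoters of many of its genes. That these genes are active in the gut is background knowledge: RNA came from whole animals, so the tissue cannot be read from the libraries.

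The study compared RNA levels between wild type and mutants of 3 Argonaute genes, whose proteins carry small guide RNAs. Long RNA came from whole larvae in L4, the last larval stage, in 3 libraries per genotype: the mutant strains alg-1(gk214), alg-2(ok304), alg-5(tm1163) and alg-5(ram2), and N2 as wild type. Hours were counted from the L1 stage. Collection was at 49 h, but at 53 h for alg-1(gk214), a delay by which the submitters matched its stage, so that in this mutant genotype and age in hours cannot be told apart. The labels name no further allele or agent for the 5 groups.

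Values are FPKM, fragments scaled to transcript length and to library size, so that levels of different genes can be compared. The number of reads per library is not given, so no counting error can be attached to them. In alg-1(gk214) libraries alg-1 mRNA was at 13.02 ± 2.88 FPKM, against 30.3 ± 2.05 FPKM in wild type (SD, n = 3 each). alg-2 mRNA was at 2.06 ± 0.114 FPKM in alg-2(ok304), against 15.3 ± 1.96 FPKM in wild type, and alg-5 mRNA was at 0.720 ± 0.241 FPKM in alg-5(ram2), against 9.35 ± 1.17 FPKM in wild type. In alg-5(tm1163) alg-5 mRNA was at 10.2 ± 1.37 FPKM, so its level does not check that label. The labels do not say whether the 3 libraries of a genotype came from separate cultures, and the p-values below measure only the spread between these libraries.

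In wild type larvae the aspartyl protease asp-1 stood far above the rest, with a mean of 7502 ± 934 FPKM (SD, n = 3), rank 10 among all genes in the table. asp-3, a cathepsin D-like protease known for its part in necrotic neuron death, followed with 2213 ± 210 FPKM, and the ranges of this pair did not overlap. Then came asp-2 with 1134, cpr-4 with 1131, cpr-5 with 1016, cpr-1 with 946 and cpr-6 with 702 FPKM, and in this run of 5 each neighbour overlapped the next between libraries. ges-1 had a wild type mean of 51.9 ± 9.85 FPKM and elt-2 one of 26.9 ± 10.2 FPKM. The regulator was therefore the lowest of the 9 mRNAs and also the most variable in wild type, with a coefficient of variation of 37.9%. Together the 7 proteases held 1.12% to 1.23% of the summed FPKM of a wild type library.

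**Figure D1:**
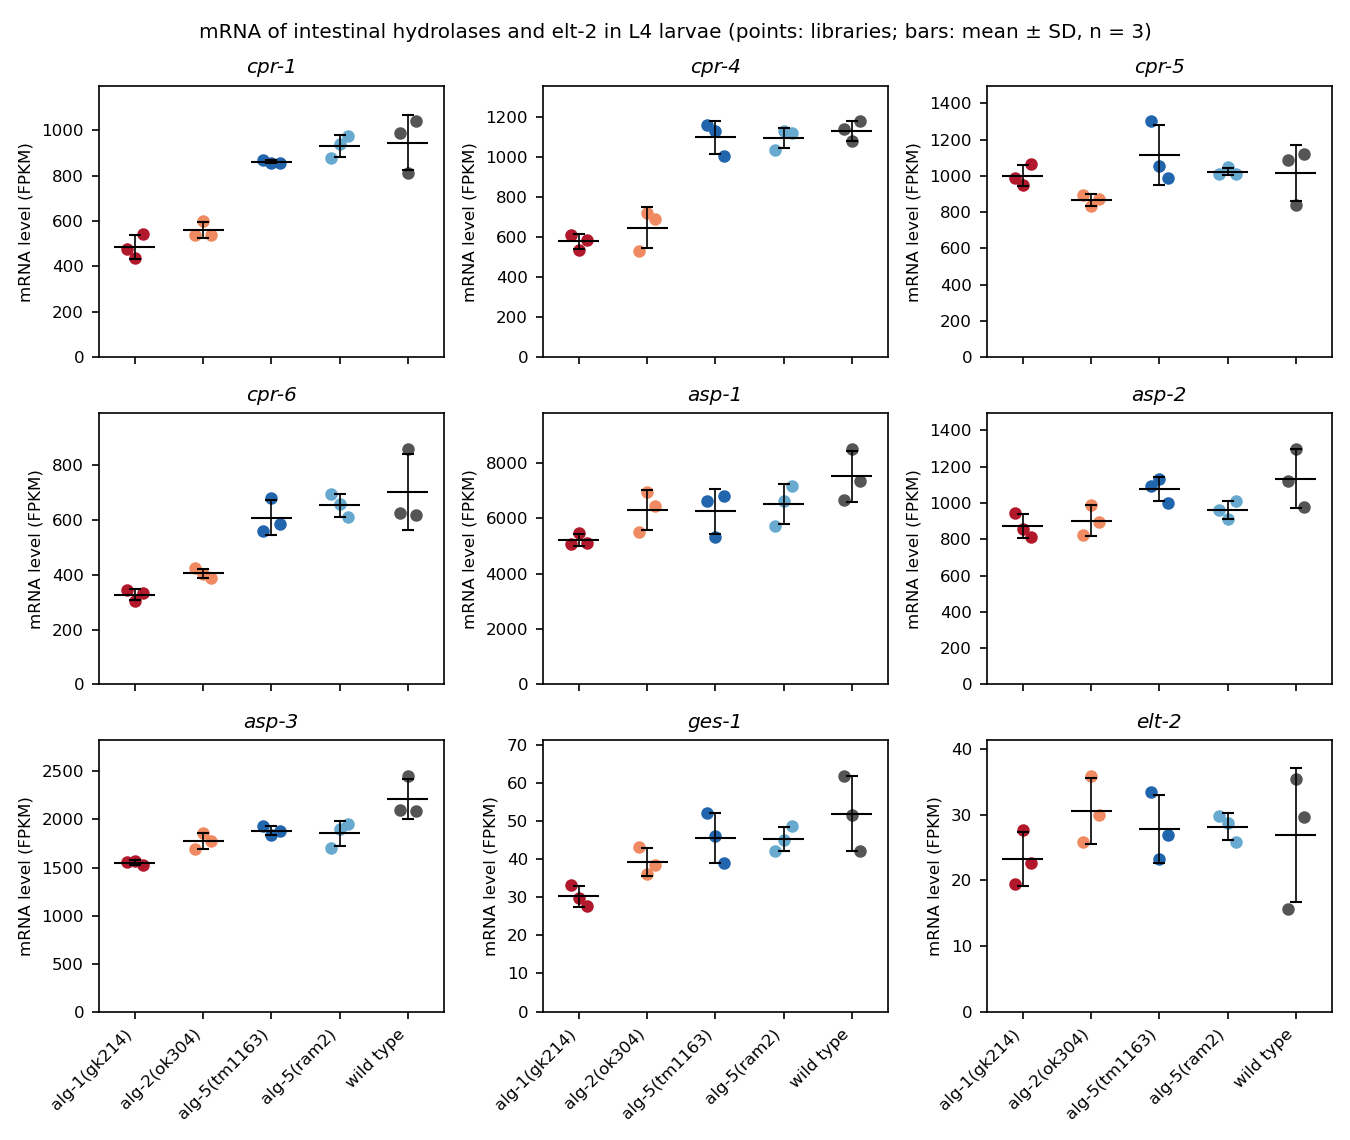
mRNA level in FPKM (vertical axes, each starting at 0) of the 9 genes in L4 larvae of alg-1(gk214), alg-2(ok304), alg-5(tm1163), alg-5(ram2) and wild type. Each point is a library and each bar the mean ± SD of 3 libraries; cpr-1, cpr-4 and cpr-6 are low in every alg-1(gk214) and alg-2(ok304) library, while cpr-5 and elt-2 overlap wild type in each mutant.

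In alg-1(gk214) larvae 7 of the 9 mRNAs fell relative to wild type and none rose. The cathepsin B-like cpr-1, cpr-4 and cpr-6 fell to between 46.6% and 51.3% of the wild type mean, ges-1 to 58.2%, and asp-1, asp-2 and asp-3 to between 69.5% and 77.0%. cpr-5 and elt-2 did not pass the test. For comparison, 8.41% of the 15174 genes tested were called lower in this mutant, 6.39% higher and 14.8% in either direction. Because the 9 were chosen with earlier results known, such shares are a background and no test of the set. The 3 libraries of the mutant lay below all 3 of wild type for the same 7 genes, and for 14.6% of all genes. Changes were tested with limma on log2(FPKM + 1), all 15 libraries in 1 model, with Benjamini-Hochberg adjustment over all genes tested and a threshold of 0.05, and log2 changes below are on that scale. The median change of all genes was 0.0069 on this scale in alg-1(gk214) and 0.0042 in alg-2(ok304), which the scaling of FPKM to library size largely sets.

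In alg-2(ok304) larvae 4 of the 9 mRNAs fell and none rose, against 7.08% of all genes tested called lower, 4.87% called higher and 12% called in either direction. Libraries of the mutant lay below all of wild type for these 4 genes, and for 14.5% of all genes. The 4 were cpr-1, cpr-4 and cpr-6, at 57.2% to 59.1% of wild type, and asp-3 at 80.3%. Both comparisons use the same 3 wild type libraries. Since RNA was taken from whole animals, less mRNA per gut cell and less gut tissue per animal cannot be told apart.

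Of the cysteine proteases, cpr-1, a cathepsin B-like enzyme of the gut, had 475, 437 and 544 FPKM in alg-1(gk214), 540.2, 600.0 and 537 FPKM in alg-2(ok304), and 988, 811 and 1040 FPKM in wild type. Every library of these mutants lay below every wild type library. The change was -0.96 (SE 0.107, adjusted p = 4.09e-05) in alg-1(gk214) and -0.75 (SE 0.107, adjusted p = 0.000335) in alg-2(ok304), each by limma.

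cpr-4, a cathepsin B-like protease that worm cells can secrete, had 612, 537 and 586 FPKM in alg-1(gk214), 531, 719 and 691 FPKM in alg-2(ok304), and 1139, 1078 and 1178 FPKM in wild type. The wild type libraries stayed close together, and no alg-1(gk214) or alg-2(ok304) library came near them. The changes were -0.97 (limma, adjusted p = 5.53e-05) in alg-1(gk214) and -0.82 (limma, adjusted p = 0.000258) in alg-2(ok304), with an SE of 0.112.

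cpr-6, a further cathepsin B-like protease, had 344, 305 and 333 FPKM in alg-1(gk214), 425, 402 and 390 FPKM in alg-2(ok304), and 625, 862 and 620 FPKM in wild type. One wild type library was well above the others, yet the lowest wild type value still exceeded all 6 mutant values. With changes of -1.08 (adjusted p = 4.75e-05) in alg-1(gk214) and -0.77 (adjusted p = 0.000845) in alg-2(ok304) by limma, SE 0.123, cpr-6 had the largest change of the 9 in alg-1(gk214). The calls of cpr-1, cpr-4 and cpr-6 in both mutants were kept under all 25 alternative settings.

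cpr-5, another cathepsin B-like protease, did not pass the test in either mutant. It had 988, 950 and 1067 FPKM in alg-1(gk214), 896, 834 and 874 FPKM in alg-2(ok304), and 1089, 840 and 1119 FPKM in wild type, so that the alg-1(gk214) libraries lay inside the wild type range. Its change was -0.01 in alg-1(gk214) (limma, adjusted p = 0.977), with a 95% interval of -0.27 to 0.25, and -0.22 in alg-2(ok304) (limma, adjusted p = 0.295), with an interval of -0.47 to 0.04. The interval in alg-1(gk214) does not reach the changes of the other 3 cpr genes. Quantile normalization gave cpr-5 a value of 0.20 in alg-1(gk214), and leaving out single libraries moved it between -0.14 and 0.07.

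Set against cpr-5 within each library, the other cysteine proteases were lower in both mutants. The ratio of cpr-1 to cpr-5 in FPKM was 0.460 to 0.510 in alg-1(gk214) and 0.603 to 0.720 in alg-2(ok304), against 0.908 to 0.964 in wild type. The ratio of cpr-4 to cpr-5 was 0.549 to 0.620 in alg-1(gk214) and 0.592 to 0.863 in alg-2(ok304), against 1.05 to 1.28 in wild type. For cpr-6 it was 0.312 to 0.348 in alg-1(gk214) and 0.446 to 0.482 in alg-2(ok304), against 0.554 to 1.03 in wild type. In each of the 3 ratios the libraries of both mutants lay below all wild type libraries. The alg-5(tm1163) ratios were 0.669 to 0.866 for cpr-1, 0.891 to 1.07 for cpr-4 and 0.431 to 0.645 for cpr-6, and those of alg-5(ram2) were 0.866 to 0.964, 1.02 to 1.11 and 0.604 to 0.686 in the same order. All of these overlapped wild type except the cpr-1 ratio of alg-5(tm1163). Such a ratio shows unequal change of its genes, not that cpr-5 stayed the same. The ratios were not planned, restate the values above and were not tested.

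**Figure D2:**
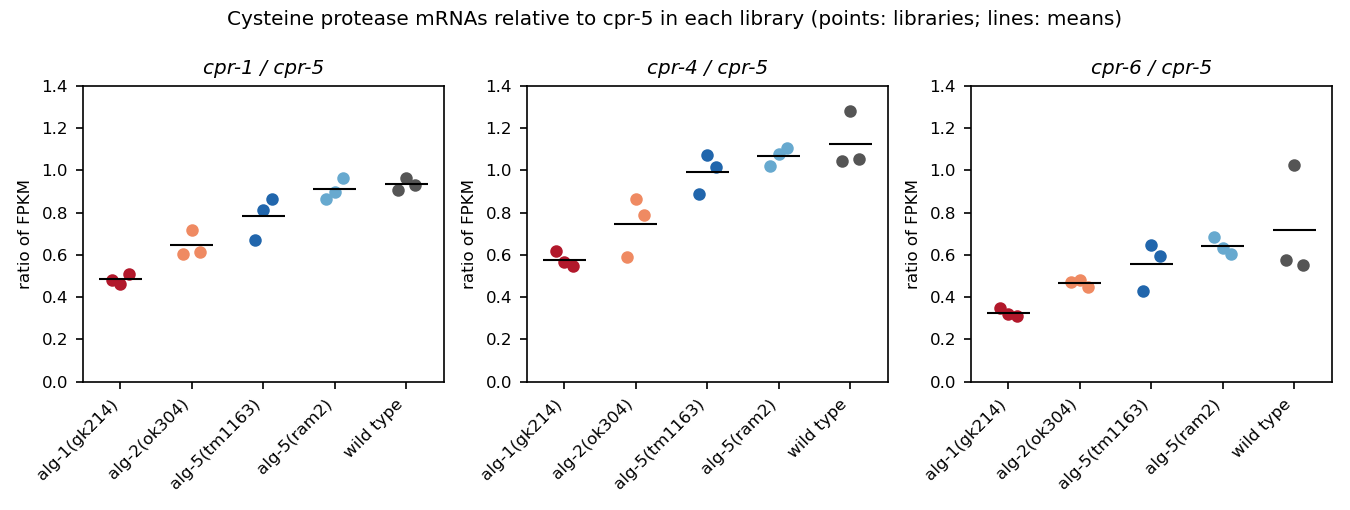
FPKM of cpr-1, cpr-4 and cpr-6 divided by that of cpr-5 in the same library (vertical axes, from 0), for alg-1(gk214), alg-2(ok304), alg-5(tm1163), alg-5(ram2) and wild type. Points are libraries and lines the means of 3; the mean cpr-6 ratio is 0.327 in alg-1(gk214), 0.467 in alg-2(ok304) and 0.718 in wild type, where a single library at 1.03 stands above the others.

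Of the aspartyl proteases, asp-1, the most abundant of the 9, had 5082, 5456 and 5097 FPKM in alg-1(gk214), 5497, 6941 and 6425 FPKM in alg-2(ok304), and 6665, 8509 and 7331 FPKM in wild type. The alg-1(gk214) libraries were all below wild type, while those of alg-2(ok304) overlapped it. asp-1 fell in alg-1(gk214) by 0.52 on the log2 scale (limma, SE 0.135, adjusted p = 0.0195), and in alg-2(ok304) its value of -0.25 did not pass (adjusted p = 0.274). The call in alg-1(gk214) was lost without wild type replicate 2 (adjusted p = 0.0838), without alg-1(gk214) replicate 1 (adjusted p = 0.0601) and without alg-1(gk214) replicate 3 (adjusted p = 0.0590).

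asp-3 was called lower in both mutants. It had 1560, 1570 and 1526 FPKM in alg-1(gk214), 1696, 1862 and 1777 FPKM in alg-2(ok304), and 2095, 2456 and 2089 FPKM in wild type. All libraries of both mutants lay below wild type. Those of alg-1(gk214) lay below those of alg-2(ok304) without passing the direct test between them (limma, adjusted p = 0.336). The change was -0.51 (SE 0.0889, adjusted p = 0.00156) in alg-1(gk214), called under all 25 alternatives, and -0.31 (SE 0.0889, adjusted p = 0.0339) in alg-2(ok304), both by limma. In alg-2(ok304) the call was lost without wild type replicate 2 (adjusted p = 0.134) and without any one of the 3 alg-2(ok304) libraries (adjusted p = 0.0528 to 0.120).

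For asp-2, a further aspartyl protease, alg-1(gk214) gave 945, 859 and 813 FPKM, alg-2(ok304) 821, 991 and 896 FPKM, and wild type 1123, 1300 and 978 FPKM. The alg-1(gk214) libraries were just below the lowest of wild type, and 1 alg-2(ok304) library was above it. asp-2 changed by -0.37 in alg-1(gk214) (limma, adjusted p = 0.0396), a call that was lost in 12 of 25 alternatives, among them the omission of wild type replicate 1 or 2, of alg-1(gk214) replicate 2 or 3, of alg-2(ok304) replicate 3 or of any alg-5(ram2) library (adjusted p = 0.0510 to 0.153). In alg-2(ok304) its value was -0.32 (limma, adjusted p = 0.0817), which passed without wild type replicate 3 (adjusted p = 0.0269).

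Summed over the family, the 4 cpr mRNAs came to 2393 ± 152 FPKM in alg-1(gk214) and 2479 ± 82.3 FPKM in alg-2(ok304), against 3796 ± 187 FPKM in wild type (SD, n = 3 each). The 3 asp mRNAs came to 7636 ± 229 FPKM in alg-1(gk214) and 8969 ± 897 FPKM in alg-2(ok304), against 10849 ± 1253 FPKM in wild type. The cpr sums of these mutants were close to each other, and neither kind of sum was tested. As a share of the summed FPKM of a library, the 7 proteases held 0.813% to 0.843% in alg-1(gk214) and 0.865% to 0.962% in alg-2(ok304), against 1.12% to 1.23% in wild type. Of the FPKM of all 29 cathepsin-class genes of the table, the 7 made up 67.6% ± 0.414 in alg-1(gk214), 66.4% ± 0.257 in alg-2(ok304) and 64.3% ± 1.53 in wild type (SD, n = 3).

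ges-1, the gut carboxylesterase, had 33.2, 29.7 and 27.7 FPKM in alg-1(gk214), 43.3, 36.1 and 38.3 FPKM in alg-2(ok304), and 61.9, 51.7 and 42.2 FPKM in wild type. The alg-1(gk214) libraries were below wild type, and below alg-2(ok304) without passing the direct test between them (limma, adjusted p = 0.293). In alg-2(ok304) 1 library overlapped wild type. The change in alg-1(gk214) was -0.75 (limma, SE 0.155, adjusted p = 0.00492), which became 0.0531 when only the libraries of alg-1(gk214) and wild type were fitted. In alg-2(ok304) the value was -0.38 (limma, adjusted p = 0.139, 95% interval -0.71 to -0.05), and it passed without wild type replicate 3 (adjusted p = 0.0489).

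elt-2, the GATA factor, did not pass the test in either mutant. It had 19.5, 27.7 and 22.7 FPKM in alg-1(gk214), 25.9, 36.0 and 30.004 FPKM in alg-2(ok304), and 15.6, 35.4 and 29.6 FPKM in wild type, whose libraries enclosed nearly all mutant values. The log2 value was -0.14 in alg-1(gk214) (limma, adjusted p = 0.783) and 0.25 in alg-2(ok304) (limma, adjusted p = 0.615). The 95% intervals, -0.68 to 0.41 in alg-1(gk214) and -0.30 to 0.79 in alg-2(ok304), are wide, so that a change as large as those of asp-1 and asp-3 would lie inside the first. The sign turned to 0.09 in alg-1(gk214) without wild type replicate 2 and to -0.09 in alg-2(ok304) without wild type replicate 1, the library with the low value. mRNA levels say nothing of the amount or activity of the ELT-2 protein.

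**Figure D3:**
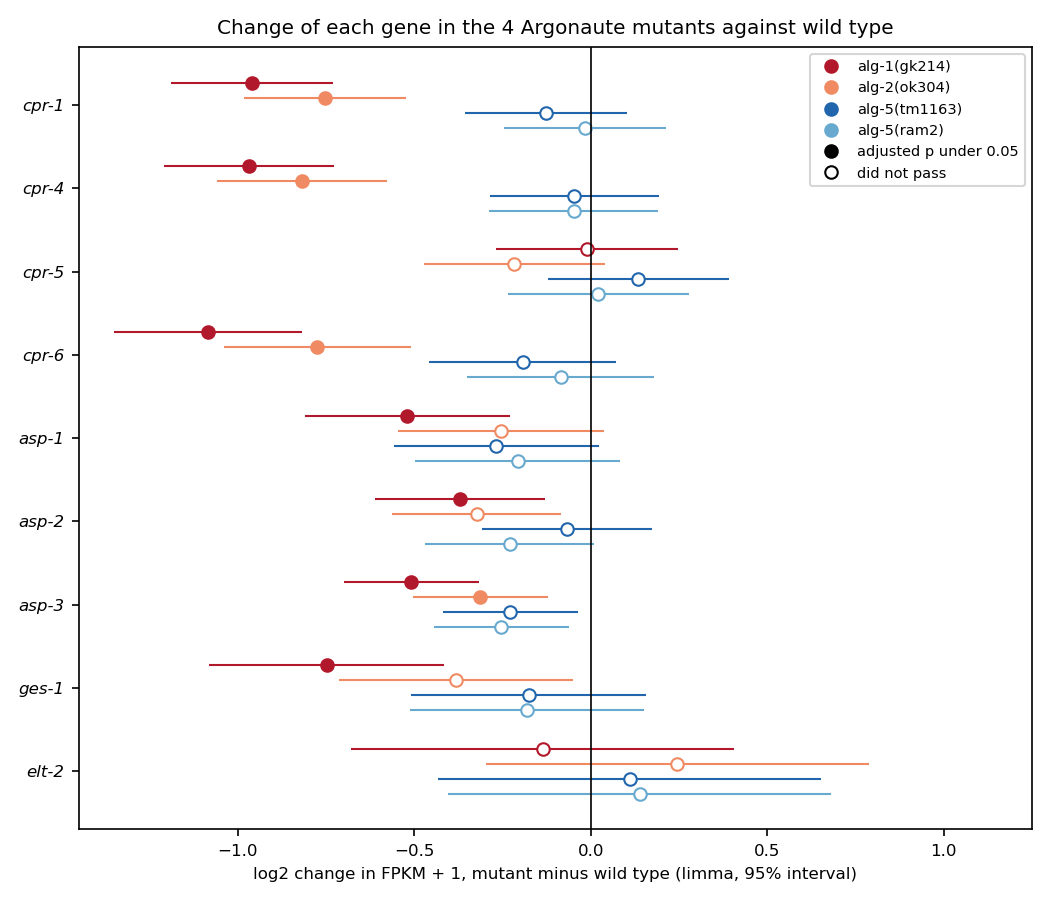
log2 change in FPKM + 1, mutant minus wild type (horizontal axis), for the 9 genes (rows) in alg-1(gk214), alg-2(ok304), alg-5(tm1163) and alg-5(ram2). Points are limma estimates from 3 libraries a genotype, lines their 95% intervals, and filled points have an adjusted p under 0.05; filled points are confined to alg-1(gk214) and alg-2(ok304) and all lie left of 0.

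In the alg-5 mutants none of the 9 passed the test. The background was low too, since limma called 0.0857% of all genes tested in alg-5(tm1163) and 0.29% in alg-5(ram2). With an unadjusted p under 0.05 there was 1 of the 9 in each allele, against 10.8% of all genes in alg-5(tm1163) and 7.68% in alg-5(ram2). That gene was asp-3 in both, with 1937, 1838 and 1880 FPKM in alg-5(tm1163), 1708, 1903 and 1953 FPKM in alg-5(ram2), and 2095, 2456 and 2089 FPKM in wild type. All 6 alg-5 libraries lay below wild type, at a change of -0.23 (limma, adjusted p = 0.373) in alg-5(tm1163) and -0.25 (limma, adjusted p = 0.443) in alg-5(ram2). Groups were separated in this direction for 6.97% of all genes in alg-5(tm1163) and 6.59% in alg-5(ram2), and both alleles are set against the same wild type libraries.

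The cysteine proteases of the alg-5 mutants stayed near the wild type level. cpr-1 had 856 to 871 FPKM in alg-5(tm1163) and 876 to 976 FPKM in alg-5(ram2), against 811 to 1040 FPKM in wild type. For cpr-4 the ranges were 1003 to 1158 FPKM in alg-5(tm1163) and 1035 to 1127 FPKM in alg-5(ram2), against 1078 to 1178 FPKM in wild type. The log2 values of cpr-4 were -0.05 in each allele, with 95% intervals of -0.29 to 0.19 for both. Differences as large as those in alg-1(gk214) and alg-2(ok304) lie outside these intervals.

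In alg-5 mutants the remaining genes also overlapped wild type. cpr-6 had 560 to 680 FPKM in alg-5(tm1163) and 611 to 695 FPKM in alg-5(ram2), against 620 to 862 FPKM in wild type, and cpr-5 had 989 to 1301 FPKM and 1012 to 1047 FPKM in the same alleles, against 840 to 1119 FPKM. asp-1 had 5316 to 6790 FPKM in alg-5(tm1163) and 5716 to 7154 FPKM in alg-5(ram2), against 6665 to 8509 FPKM in wild type. asp-2 had 1002 to 1134 FPKM in alg-5(tm1163) and 914 to 1009 FPKM in alg-5(ram2), against 978 to 1300 FPKM in wild type. The low-level genes showed the same overlap: ges-1 had 38.8 to 52.0 FPKM in alg-5(tm1163) and 42.1 to 48.5 FPKM in alg-5(ram2), against 42.2 to 61.9 FPKM in wild type, and elt-2 had 23.2 to 33.5 FPKM and 25.9 to 29.9 FPKM in these alleles, against 15.6 to 35.4 FPKM.

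The mutants were also compared with each other, which takes the wild type libraries out of the difference. Against alg-5(tm1163), alg-1(gk214) was lower in 4 of the 9, cpr-1 (-0.83, adjusted p = 0.000183), cpr-4 (-0.92, adjusted p = 0.000112), cpr-6 (-0.89, adjusted p = 0.000316) and ges-1 (-0.57, adjusted p = 0.0321) by limma, where 5.25% of all genes were called lower. Against alg-5(ram2) it was lower in the same 4 genes, with -0.94 for cpr-1, -0.92 for cpr-4, -0.9997 for cpr-6 and -0.57 for ges-1, against 5.9% of all genes. Both comparisons share the alg-1(gk214) libraries, and ges-1 lost its call in 6 of 25 alternatives in each. The call of ges-1 ended on leaving out alg-1(gk214) replicate 2 or 3, alg-5(tm1163) replicate 1 or 2, or any alg-5(ram2) library, with an adjusted p of 0.0543 to 0.110.

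alg-2(ok304) was lower than alg-5(tm1163) in cpr-1 (-0.63, adjusted p = 0.00209), cpr-4 (-0.77, adjusted p = 0.000564) and cpr-6 (-0.58, adjusted p = 0.0093) by limma, 3 of the 9, where 3.94% of all genes were called lower. The cpr-6 call was lost without alg-5(tm1163) replicate 2 (adjusted p = 0.0507). Against alg-5(ram2) it was lower in the same 3, by -0.74, -0.77 and -0.69 in the order given, where 5.52% of all genes were called lower. alg-1(gk214) against alg-5(tm1163) and alg-2(ok304) against alg-5(ram2) have no library in common among the groups compared, and cpr-1, cpr-4 and cpr-6 were called lower in each. Both take their spread from the same fit of all 15 libraries, so they are not independent tests. The comparisons of alg-2(ok304) with the alg-5 alleles were added after the data had been seen.

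Between alg-1(gk214) and alg-2(ok304) none of the 9 passed the test: limma called 0 of them in the direct comparison, where 1.59% of all genes were called. With an unadjusted p under 0.05 there were 3, cpr-6 (-0.31), asp-3 (-0.20) and ges-1 (-0.37), against 14.3% of all genes, each lower in alg-1(gk214). All alg-1(gk214) libraries lay below those of alg-2(ok304) for cpr-6, asp-1, asp-3 and ges-1, and above them for cpr-5. The share of all genes separated in this way is not given here. For cpr-1 the difference was -0.21 with a 95% interval of -0.44 to 0.02, and for cpr-4 -0.15 with an interval of -0.39 to 0.09. The larger number of calls in alg-1(gk214) against wild type is therefore not shown to be a difference between the mutants.

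Relatives of the 7 proteases were looked up by gene class. Of 23 other cathepsin and aspartyl protease genes 15 were tested, and in alg-1(gk214) 7 fell and 2 rose, with a median of -0.35, while in alg-2(ok304) 5 fell and none rose, with a median of -0.38. Over all genes tested 8.41% fell and 6.39% rose in alg-1(gk214), and 7.08% fell and 4.87% rose in alg-2(ok304), which is the background of each list count that follows. The lists, too, were chosen with earlier results of these data known. In both alg-5 alleles limma called none of the 15, with medians of -0.09 in alg-5(tm1163) and -0.21 in alg-5(ram2). The 8 genes not tested were asp-7, asp-9, asp-11, asp-15, asp-16, asp-18, asp-19 and cpr-2.

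The largest change of this group was that of asp-14, an aspartyl protease gene, at 83.8 ± 6.65 FPKM in alg-1(gk214) and 200.5 ± 39.3 FPKM in alg-2(ok304), against 392 ± 118 FPKM in wild type (SD, n = 3 each). Its log2 change was -2.17 (adjusted p = 6.52e-06) in alg-1(gk214) and -0.94 (adjusted p = 0.00526) in alg-2(ok304) by limma. asp-12, another of this kind, had 11.6 ± 3.11 FPKM in alg-1(gk214) and 49.3 ± 3.55 FPKM in alg-2(ok304), against 45.4 ± 4.12 FPKM in wild type. It fell in alg-1(gk214) by 1.90 on the log2 scale (limma, adjusted p = 1.04e-05) and did not pass in alg-2(ok304) (0.12, adjusted p = 0.749). cpr-9, a cysteine protease, was at 492 ± 50.8 FPKM in alg-1(gk214) and 617 ± 24.4 FPKM in alg-2(ok304), against 1137 ± 151 FPKM in wild type, and fell by 1.20 in alg-1(gk214) and by 0.87 in alg-2(ok304) on the log2 scale.

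Of the cathepsins of other types, cpz-1, the cathepsin Z-like gene needed in molting, changed by -1.19 in alg-1(gk214) (limma, adjusted p = 0.000689) and by -0.99 in alg-2(ok304) (limma, adjusted p = 0.00301). cpl-1, the cathepsin L-like gene needed in embryos and for the cuticle, changed by -0.98 in alg-1(gk214) (limma, adjusted p = 4.09e-05) and by -0.76 in alg-2(ok304) (limma, adjusted p = 0.000371). asp-6 (-0.78) and asp-5 (-0.45) also fell in alg-1(gk214), and asp-17 fell in alg-2(ok304) (-1.27). cpr-8 rose in alg-1(gk214), with 33.6 ± 0.945 FPKM against 19.03 ± 2.58 FPKM in wild type (limma, 0.80, adjusted p = 0.00338), as did the cathepsin D-like asp-4 (0.43, adjusted p = 0.0385). asp-4 and asp-5 lost these calls without wild type replicate 2 (adjusted p = 0.108 for asp-4 and 0.0673 for asp-5), asp-4 also in 7 other omissions of 1 library. The naming rule covered only asp-14, asp-12, cpr-9 and cpz-1 in this group, and the others were singled out after their values had been seen. Genes of these families resemble one another, and how reads matching more than 1 of them were assigned is not given in the sources used here, so the division of signal between close relatives is uncertain.

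**Figure D4:**
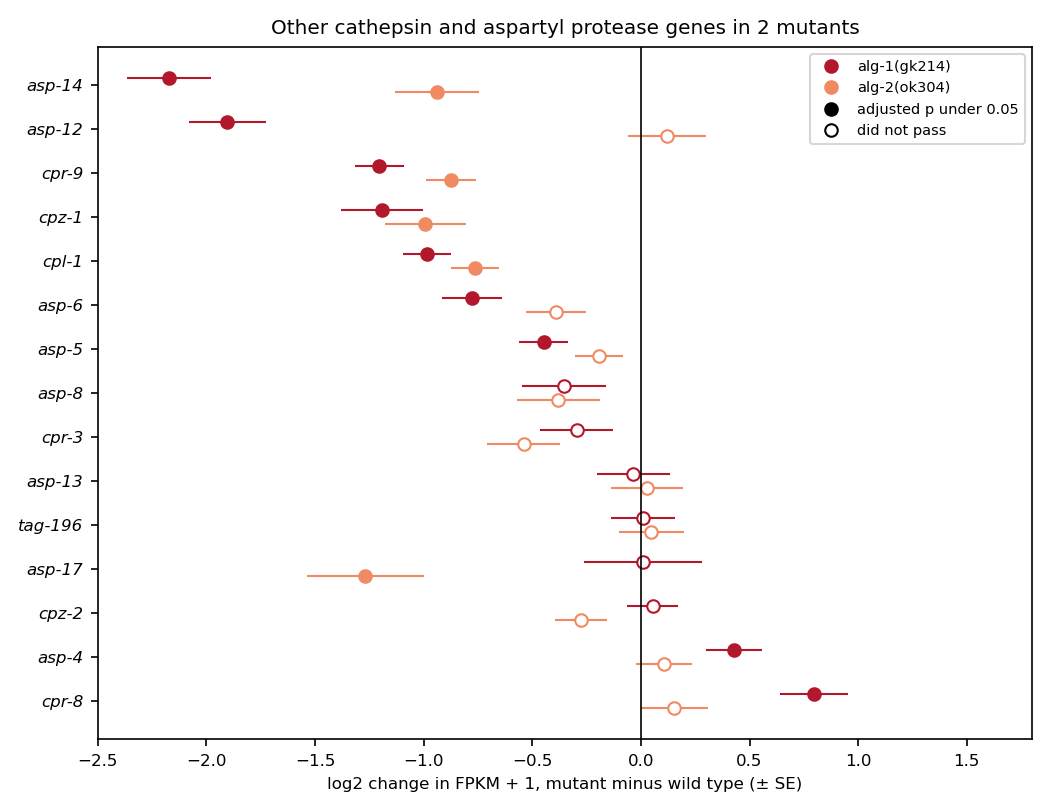
log2 change in FPKM + 1, mutant minus wild type (horizontal axis), of the 15 tested cathepsin and aspartyl protease genes outside the 7 (rows), for alg-1(gk214) and alg-2(ok304). Points are limma estimates with their SE and filled points have an adjusted p under 0.05; 5 genes from asp-14 to cpl-1 are far left of 0 in alg-1(gk214), and asp-12 parts the mutants most, at -1.90 in alg-1(gk214) and 0.12 in alg-2(ok304).

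Beside elt-2, the other GATA factors of the gut lineage were elt-7 and elt-4, as end-1, end-3, med-1 and med-2, which act in the embryo, were too low to test. Against wild type limma called neither in any mutant, and between mutants elt-7 was called once, higher in alg-1(gk214) than in alg-5(ram2). elt-4 was low, with a mean of 0.274 FPKM in wild type. Its means in the mutants were higher without a call, all set against the same wild type libraries. It had 5.11 FPKM in alg-1(gk214), 2.10 FPKM in alg-2(ok304), 1.52 FPKM in alg-5(tm1163) and 4.02 FPKM in alg-5(ram2). Its log2 values were 1.64 (limma, adjusted p = 0.267) in alg-1(gk214) and 1.12 (limma, adjusted p = 0.500) in alg-2(ok304). elt-7, which acts with elt-2 in the gut, had 25.3 ± 0.536 FPKM in alg-1(gk214), 18.3 ± 4.71 FPKM in alg-2(ok304), 17.0 ± 2.56 FPKM in alg-5(tm1163) and 13.7 ± 1.29 FPKM in alg-5(ram2), against 28.6 ± 5.21 FPKM in wild type (SD, n = 3 each). Its log2 values were -0.15 (adjusted p = 0.679), -0.63 (adjusted p = 0.0586), -0.71 (adjusted p = 0.253) and -0.997 (adjusted p = 0.0751) in the same order of mutants by limma, and all libraries of the last 3 lay below wild type. Of 4 GATA factors of the epidermis and other tissues, elt-3 was called, higher in alg-1(gk214) by 0.79 (limma, adjusted p = 0.0348). That call was lost without wild type replicate 1 or 2 or alg-1(gk214) replicate 2 or 3 (adjusted p = 0.0652 to 0.144).

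Structural genes of the gut were counted next. Of 15 brush border and transport genes, 3 fell and 1 rose in alg-1(gk214), with a median of -0.16, and in alg-2(ok304) none fell and 2 rose, with a median of 0.09. ifo-1, which organizes the intermediate filaments of gut cells, rose in both, with 63.7 ± 1.71 FPKM in alg-1(gk214) and 60.4 ± 3.35 FPKM in alg-2(ok304), against 37.9 ± 2.56 FPKM in wild type (SD, n = 3 each). The intermediate filament gene ifd-2 fell in alg-1(gk214) by 0.97 (limma, adjusted p = 0.00256), and the transporter gene pgp-1, named after its values were seen, rose in alg-2(ok304) by 0.84 (limma, adjusted p = 0.00299). The gut actin act-5 (-0.50, adjusted p = 0.0394) and the proton pump subunit vha-6 (-0.30, adjusted p = 0.0386) were called lower in alg-1(gk214) by limma, and lost the call in 11 and 13 of 25 alternatives. Without 1 library it was lost for act-5 in 6 cases (adjusted p = 0.0513 to 0.145) and for vha-6 in 9 cases (adjusted p = 0.0503 to 0.144), wild type replicate 2 and alg-1(gk214) replicate 2 among both.

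Of 14 genes of gut metabolism and storage, 4 fell in alg-1(gk214) and 3 in alg-2(ok304), and none rose. fat-7, a stearoyl-CoA desaturase, was at 104 ± 12.7 FPKM in alg-1(gk214) and 96.1 ± 13.97 FPKM in alg-2(ok304), against 253 ± 58.7 FPKM in wild type, a change of -1.26 (adjusted p = 0.000172) in alg-1(gk214) and -1.37 (adjusted p = 9.62e-05) in alg-2(ok304) by limma. acdh-1, an acyl-CoA dehydrogenase, fell in alg-1(gk214), at 1665 ± 112 FPKM against 2691 ± 406 FPKM in wild type, and was at 2800 ± 141 FPKM in alg-2(ok304). The ferritin gene ftn-1 (-1.52) and the lipase gene lipl-3 (-1.67) also fell in alg-1(gk214), and both lost the call when only alg-1(gk214) and wild type were fitted (adjusted p = 0.0592 for ftn-1 and 0.0852 for lipl-3). lipl-3 was low, at 0.0227 ± 0.0393 FPKM in alg-1(gk214), against 2.39 ± 1.04 FPKM in wild type, and its log2 value depended on the pseudocount, with -4.28 at 0.1 and -0.55 at 5. In alg-2(ok304) fat-6 (-0.41) and lipl-5 (-0.61), named after their values were seen, fell with fat-7, and they lost their calls in 7 and 21 of 25 alternatives. Omission of 1 library ended the call of fat-6 for wild type replicates 1 and 2 and alg-2(ok304) replicates 1 and 3 (adjusted p = 0.0778 to 0.137), and that of lipl-5 for 13 of 15 libraries (adjusted p = 0.0529 to 0.157).

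Of 8 genes for protease inhibitors, the cystatin cpi-1, an inhibitor of cysteine proteases, was the only one called, at 59.2 ± 27.6 FPKM in alg-1(gk214) and 71.8 ± 15.5 FPKM in alg-2(ok304), against 139 ± 59.1 FPKM in wild type. It changed by -1.23 in alg-1(gk214) (limma, adjusted p = 0.0142), a call that was lost without wild type replicate 1 (adjusted p = 0.0591) or alg-1(gk214) replicate 3 (adjusted p = 0.0632). The cpi-1 call was also lost when only alg-1(gk214) and wild type were fitted (limma, adjusted p = 0.0972). Of 18 lysosome genes 4 fell and 1 rose in alg-1(gk214), with a median of -0.24, and none fell and 1 rose in alg-2(ok304), with a median of -0.06. In alg-1(gk214) the lysosomal cholesterol transporter gene ncr-1 rose (0.67), and the lysine and arginine transporter gene laat-1 (-0.57) and the proton pump subunit genes vha-4 (-0.53), vha-1 (-0.42) and vha-13 (-0.36) fell. vha-4 kept its call under all 25 alternatives, while laat-1 lost it in 17, vha-13 in 8, vha-1 in 6 and ncr-1 in 5. Omission of 1 library ended the call of laat-1 in 13 cases (adjusted p = 0.0550 to 0.126). For vha-13 the libraries were wild type replicates 1 and 3 and alg-1(gk214) replicates 1 and 3 (adjusted p = 0.0625 to 0.114). For vha-1 they were wild type replicate 1 and alg-1(gk214) replicates 2 and 3 (adjusted p = 0.0566 to 0.0604), and for ncr-1 wild type replicates 1 and 3 and alg-1(gk214) replicates 2 and 3 (adjusted p = 0.0519 to 0.0792). vha-13, and hlh-30, the gene of a lysosomal transcription factor that rose in alg-2(ok304) (0.66), were named after their values were seen.

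Markers of other cell types were read in the same libraries. The 8 intestinal markers, which include ges-1 and elt-2, summed to 1658 to 1884 FPKM in alg-1(gk214) and 2083 to 2460 FPKM in alg-2(ok304), against 2106 to 2542 FPKM in wild type. 3 of the 8 were called lower in alg-1(gk214) and none in alg-2(ok304), and none was at 0. This sum was below wild type in alg-1(gk214) and overlapped it in alg-2(ok304). act-5 makes up most of it, and the amount of gut tissue was not tested.

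Markers of sperm, which L4 hermaphrodites begin to make, also moved with the genotype. The 5 sperm markers summed to 102 to 174 FPKM in alg-1(gk214), 80.1 to 87.5 FPKM in alg-2(ok304), 105 to 178 FPKM in alg-5(tm1163) and 209 to 246 FPKM in alg-5(ram2), against 285 to 328 FPKM in wild type, so that every mutant lay below wild type. Of the 5, 4 were called lower in alg-1(gk214), 4 in alg-2(ok304), 1 in alg-5(tm1163) and none in alg-5(ram2). In alg-1(gk214) these were msp-3 (-1.78) and msp-10 (-0.94), which encode major sperm proteins, spe-11 (-1.36), which encodes a sperm factor needed by the embryo, and the sperm phosphatase gene gsp-3 (-1.05). msp-10 lost its call there in 16 of 25 alternatives, 10 of them the omission of 1 library (adjusted p = 0.0556 to 0.162), and gsp-3 in 3, among them the omission of alg-1(gk214) replicate 1 (adjusted p = 0.0514) or 2 (adjusted p = 0.0526). Major sperm protein genes are near-identical copies, so their single values are uncertain. The 5 epidermal markers summed to 430 to 479 FPKM in alg-1(gk214) and 478 to 580 FPKM in alg-2(ok304), 667 to 818 FPKM in alg-5(tm1163) and 835 to 959 FPKM in alg-5(ram2), against 765 to 964 FPKM in wild type. dpy-7 and wrt-2 fell in both mutants and nhr-25 rose in both. Summed markers of body wall muscle, pharynx, neurons and germline overlapped wild type in alg-1(gk214), and in alg-2(ok304) those of body wall muscle, at 4363 to 4950 FPKM, lay above wild type, at 3564 to 4328 FPKM. The part of these other differences in the protease results was not tested.

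Between the 9 genes, similarity over the 15 libraries followed the genotype differences for some pairs and not for others. cpr-1 and cpr-4 had a Pearson correlation of 0.96 on the log2(FPKM + 1) scale over all 15 libraries and of 0.47 in deviations from the genotype means. asp-1 and asp-3 had 0.91 over all libraries and kept 0.84 in the deviations, so their levels moved together also among libraries of 1 genotype. elt-2 lay between -0.28 and 0.48 with the other 8 over all libraries. In the deviations it ranged from -0.49 with ges-1 to 0.64 with asp-1, and had 0.51 with asp-3. The libraries share their genotype means and the scaling of FPKM, and these correlations are a description with no test.

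Outside the 9, the gene most like the mean of the 8 hydrolases over the 15 libraries was cpr-9, with a Pearson correlation of 0.96 among 10761 genes of at least 5 FPKM on average. paic-1 and atic-1, whose products are enzymes of purine synthesis, were at 0.96 and 0.95, next to Y38H8A.1 at 0.95 and exc-15 at 0.95. atic-1 had a mean of 36.1 FPKM in alg-1(gk214), 50.2 FPKM in alg-2(ok304), 120 FPKM in alg-5(tm1163), 131 FPKM in alg-5(ram2), against 161 FPKM in wild type. paic-1 had 43.9, 60.5, 118, 115 and 139 FPKM in the same order. Nearest to elt-2 was F59A7.5 with 0.88, before nlp-81 with 0.86, unc-27, a troponin I gene of muscle, with 0.83, T02H6.11 with 0.83 and hgap-1 with 0.82. The lists of 5 share no gene, which says little, since each is a small pick from 10761 genes.

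In the gene order of the WBcel235 assembly, used here for order alone, cpr-5 lies next to cpr-8, which rose in alg-1(gk214) while cpr-5 was not called. ges-1 lies next to R12A1.3, which had 17.1 FPKM in alg-1(gk214) and 24.3 FPKM in alg-2(ok304), against 3.12 FPKM in wild type, with log2 changes of 2.34 (adjusted p = 0.00744) and 2.81 (adjusted p = 0.00243) by limma. R12A1.3 was chosen after its values had been seen. asp-1 lies beside asp-15 and asp-16, which were listed at 0 in all 15 libraries.

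Small RNA was measured in 18 further libraries, 1 per group and experiment, from adults at 68 h or L4 larvae at 49 h. The deposited tables list siRNAs by the gene they match, as RPM, reads scaled to the size of the library. Of the 9 genes asp-1 was the only one among the 3640 entries of the table of CSR-1 siRNAs, small RNAs bound by the Argonaute CSR-1, and none was among the 2434 of the Mutator table. With 1 library in each group nothing could be tested.

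The asp-1 siRNA level depended strongly on the experiment. Wild type adults had 13.3 RPM in experiment 1, 55.5 RPM in experiment 2 and 1.43 RPM in experiment 3, a spread wider than most differences within an experiment. In experiment 2 the alg-1(gk214) adult library had 119 RPM and the alg-2(ok304) adult library 84.2 RPM, against 55.5 RPM in wild type. In experiment 3 alg-5(tm1163) had 0.231 RPM, against 1.43 RPM in wild type, and among L4 larvae in experiment 4 alg-5(ram2) had 124 RPM, against 123 RPM in wild type. As a share of the summed CSR-1 table these were 0.132% in alg-1(gk214) and 0.0700% in alg-2(ok304), against 0.0482% in wild type, then 0.000114% in alg-5(tm1163), against 0.000708% in wild type, and 0.213% in alg-5(ram2), against 0.239% in wild type. These animals are not those of the mRNA libraries, and no relation between the assays could be tested.

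In the immunoprecipitates asp-1 siRNA was below the input in each of the 5 constructs, as was the sum of the whole CSR-1 table. HA::ALG-1, HA::ALG-2 and ALG-1::HA::ALG-2 immunoprecipitates had 1.16, 0.771 and 2.10 RPM, against 19.99, 21.7 and 26.99 RPM in their inputs. For HA::ALG-5 it was 11.4 RPM in the immunoprecipitate and 21.5 RPM in the input, and for GFP::ALG-5 60.4 RPM in the immunoprecipitate and 175 RPM in the input. The whole table summed to between 15856 and 121613 RPM in the 5 immunoprecipitates and between 59999 and 151775 RPM in their inputs. As a share of that sum, asp-1 was at 0.00444%, 0.00486% and 0.00959% in the immunoprecipitates of HA::ALG-1, HA::ALG-2 and ALG-1::HA::ALG-2, against 0.0184%, 0.0183% and 0.0190% in the inputs. The share was 0.00936% in the HA::ALG-5 immunoprecipitate and 0.0142% in its input, and 0.224% in the GFP::ALG-5 immunoprecipitate and 0.292% in its input. The constructs HA::ALG-1 and ALG-1::HA::ALG-2 were carried in alg-1(gk214), HA::ALG-2 in alg-2(ok304) and HA::ALG-5 in alg-5(tm1163) animals.

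**Figure D5:**
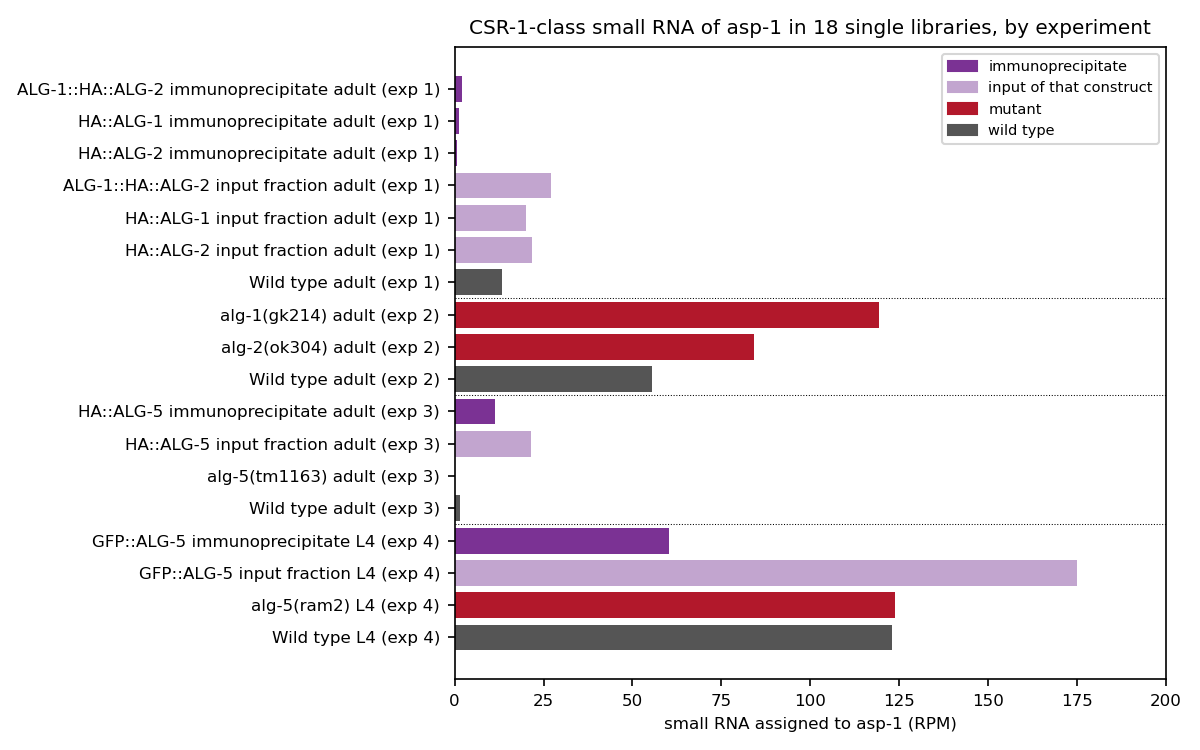
CSR-1-class small RNA assigned to asp-1 in RPM (horizontal axis, from 0) in 18 single libraries (rows), grouped by experiment, with colours for immunoprecipitate, input, mutant and wild type. Each bar is 1 library with no error; wild type adults alone lie between 1.43 and 55.5 RPM, and L4 libraries of experiment 4 other than the immunoprecipitate at 123 RPM or more.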

How the data were processed

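Total RNA of 15 L4 samples had ribosomal RNA removed with RiboZero before libraries that keep the strand were made, per the labels' protocols. The authors deposited FPKM per gene and library, and RPM per gene for CSR-1 and Mutator siRNAs; per the submitters' processing notes, Trimmomatic 0.35, TopHat2, HTSeq, DESeq2 and Cuffdiff were used in the series. The genome build and annotation are not given in the sources used here. Of 20517 sequence names 20063 matched RefSeq locus tags. RPM did not resolve into whole reads.

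The 15174 genes whose mean reached 1 FPKM in some genotype were fitted as log2(FPKM + 1) with limma 3.58.1 in R 4.3.3 (10 residual and 3.87 prior degrees of freedom) and tested two-sided in 7 planned and 2 added comparisons. Members and lists were chosen with earlier results of these data known. Named are all 9 genes, the 4 genes of each list that changed most in alg-1(gk214) among those called, and the 5 genes most like elt-2 or the hydrolases. Promoter and protein sequences, miRNAs and piRNAs were not used here.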

Additional observations from a re-analysis of the deposited data

Results flagged for a closer look

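The 3 values below are from siRNA data outside the mRNA comparisons and lay above the highest wild type library of the same stage. asp-1 CSR-1 siRNA was at 119 RPM in the alg-1(gk214) adult library and at 84.2 RPM in that of alg-2(ok304). The 3 wild type adult libraries, each from a different experiment, had at most 55.5 RPM. In the alg-5(ram2) L4 library it was at 124 RPM, against 123 RPM in the 1 wild type L4 library. Each is a single library, and no difference was tested.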

How the results depend on the processing

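Across 25 alternatives the number of the 9 genes called ranged from 5 to 7 (alg-1(gk214) against wild type), 3 to 6 (alg-2(ok304) against wild type), 3 to 5 (alg-1(gk214) against either alg-5 allele) and 2 to 4 (alg-2(ok304) against alg-5(tm1163)). It stayed at 3 (alg-2(ok304) against alg-5(ram2)) and at 0 in the other 3 comparisons. No called value changed sign. Some uncalled ones did. Under quantile normalization cpr-5 became 0.20 in alg-1(gk214) against wild type, 0.0680 against alg-5(tm1163) and 0.15 against alg-5(ram2), asp-2 0.12 against alg-2(ok304) and 0.0821 against alg-5(ram2), asp-3 0.0229 against alg-2(ok304), and asp-1 0.0570 in alg-2(ok304) against alg-5(ram2). In alg-5(ram2) against wild type, upper quartile scaling gave cpr-1 0.00855 and array weights gave cpr-5 -0.0220. Leaving out 1 library gave, against wild type, ranges of -0.141 to 0.0651 (cpr-5) and -0.47 to 0.0946 (elt-2) in alg-1(gk214), -0.0910 to 0.48 (elt-2) in alg-2(ok304), -0.23 to 0.34 (elt-2), -0.17 to 0.0360 (asp-2) and -0.0862 to 0.0174 (cpr-4) in alg-5(tm1163), and -0.12 to 0.0557 (cpr-1), -0.11 to 0.10 (cpr-5), -0.165 to 0.0722 (cpr-6) and -0.20 to 0.37 (elt-2) in alg-5(ram2). Between mutants the ranges were -0.11 to 0.0217 (asp-2, alg-1(gk214) against alg-2(ok304)), -0.0790 to 0.00459 (cpr-5, alg-1(gk214) against alg-5(ram2)), -0.10 to 0.11 (asp-1, alg-2(ok304) against alg-5(tm1163)), and -0.14 to 0.0461 (asp-1) and -0.0127 to 0.22 (elt-2) in alg-2(ok304) against alg-5(ram2). The causes were not tested.

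The call of asp-3 in alg-2(ok304) was also lost when only the compared groups were fitted (adjusted p = 0.144), with upper quartile scaling (0.05001), without the mean-variance trend (0.119) and with array weights (0.0710), and that of asp-2 in alg-1(gk214) when only the compared groups were fitted (0.147), without the trend (0.105), with array weights (0.120) and with quantile normalization (0.368). Fitting only the compared groups left 1117 of all genes called in alg-1(gk214), against 2245, and 1169 in alg-2(ok304), against 1814, with fewer samples to estimate the spread. Over all alternatives 1 to 32 genes were called in alg-5(tm1163) and 16 to 73 in alg-5(ram2), against 13 and 44.

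Replicate numbers were not used to pair the libraries in the main fit. Correlations of same-numbered libraries were weak, between -0.0255 and 0.0904, yet 9 of 15 libraries correlated best with their own number. Whether same-numbered libraries share a batch was not tested. With the replicate number as a block, 7, 4, 0 and 0 of the 9 genes were called in alg-1(gk214), alg-2(ok304), alg-5(tm1163) and alg-5(ram2) against wild type, where 16.2%, 12.8%, 0.0593% and 0.336% of all genes were called, and asp-3 was also called in alg-1(gk214) against alg-5(tm1163) (adjusted p = 0.0430).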
